A study of Mus musculus with 4 samples.

Results

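The *Cyp2c* cluster is a group of neighbouring cytochrome P450 genes, and 10 of its members were examined in the mouse liver: *Cyp2c29*, *Cyp2c37*, *Cyp2c38*, *Cyp2c39*, *Cyp2c40*, *Cyp2c50*, *Cyp2c54*, *Cyp2c67*, *Cyp2c68* and *Cyp2c70*. They were taken by gene symbol from a table of 35739 genes, which held all 10, and were chosen with earlier results of these data known. The question was how each member, and the cluster as a whole, differed between the livers of *Usp21* KO mice and those of WT littermates. *Usp21* encodes a deubiquitylase, an enzyme that removes ubiquitin from other proteins.

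The KO mice carried a *Usp21* allele, made in 129/Sv ES cells, from which Cre recombinase had removed exons 3 and 4, and they were bred on a mixed B6 × 129/Sv background. All mice of the study were 10–11 weeks old and ate a normal diet, with light for 12 h of each day. The RNA came from whole liver, with 1 library per mouse, and covered WT replicates 2 and 3 and *Usp21* KO replicates 1 and 3. Neither the sex of the mice nor the hour of collection was given in the sources used here. With 2 libraries per genotype, an exact permutation test of a single value cannot go below p = 0.333. In whole liver, fewer cells of a type and less RNA per cell cannot be told apart.

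CYP2C enzymes are haem proteins of the endoplasmic reticulum that oxidise drugs, steroids and fatty acids, and in the liver several of them turn arachidonic acid into epoxides. They receive electrons from the P450 reductase Por, and their epoxide products are opened by the hydrolases Ephx1 and Ephx2. CYP2C70 is the member best known for a different task, since it makes the muricholic acids, the bile acids typical of mice. Hepatic *Cyp2c* genes are known targets of the liver factor HNF4α and of the xenobiotic receptors CAR and PXR.

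In the GENCODE M21 annotation of GRCm38, the 10 members spanned 918 kb of chromosome 19, from 39269405 to 40187333, with 4 on the forward and 6 on the reverse strand. The order from the lower coordinate was *Cyp2c29*, *Cyp2c38*, *Cyp2c39*, *Cyp2c67*, *Cyp2c68*, *Cyp2c40*, *Cyp2c37*, *Cyp2c54*, *Cyp2c50* and *Cyp2c70*, and a further gene, *Cyp2c69*, lay between *Cyp2c40* and *Cyp2c37*. All 10 were annotated as protein-coding. The coding sequences of the 45 pairs of members were between 62.4% and 97.1% identical, with a median of 78.8%. The 30 coding bases around the cysteine that holds the haem, which end exon 8 and begin exon 9, are printed here to show how alike the members are, since this decides how far reads can be told apart. Capitals mark bases that differ from *Cyp2c29*, and each sequence runs 5′ to 3′ on the gene's own strand.
Cyp2c29 (forward, chr19:39329236-39329245 and chr19:39330252-39330271): ttttcaacaggaaaacggatttgtgctgga
Cyp2c38 (reverse, chr19:39392149-39392158 and chr19:39391093-39391112): ttCtcaGcaggaaaacggGtttgtgctgga
Cyp2c39 (forward, chr19:39567019-39567028 and chr19:39568013-39568032): ttCtcaGcaggaaaacgTGtttgtgctgga
Cyp2c37 (forward, chr19:40009947-40009956 and chr19:40011727-40011746): ttCtcaacaggGaaacggatAtgtgcAgga
Cyp2c54 (reverse, chr19:40040192-40040201 and chr19:40038399-40038418): ttCtcaacaggGaaacggatAtgtgcAgga
Cyp2c50 (forward, chr19:40111408-40111417 and chr19:40113434-40113453): ttCtcaacaggaaaacggatAtgtgcAgga
Cyp2c67 (reverse, chr19:39615620-39615629 and chr19:39609242-39609261): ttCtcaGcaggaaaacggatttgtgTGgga
Cyp2c68 (reverse, chr19:39699261-39699270 and chr19:39689234-39689253): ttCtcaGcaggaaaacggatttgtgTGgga
Cyp2c40 (reverse, chr19:39773824-39773833 and chr19:39767471-39767490): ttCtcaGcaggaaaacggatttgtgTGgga
Cyp2c70 (reverse, chr19:40156723-40156732 and chr19:40153738-40153757): ttCtcaGcaggaaGaAgAGCttgtATtgga

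Only 7 different sequences occurred among the 10 members in this stretch. *Cyp2c67*, *Cyp2c68* and *Cyp2c40* were the same in all 30 bases, as were *Cyp2c37* and *Cyp2c54*, whereas *Cyp2c70* differed from *Cyp2c29* at 9 bases. The same order of likeness held over whole transcripts, which were cut into overlapping 31-base stretches, a length often used as the seed of read assignment. The share of a gene's stretches that also occurred in any other annotated gene was 72.6% for *Cyp2c40*, 67.6% for *Cyp2c67* and 62.0% for *Cyp2c68*. It was 47.4% for *Cyp2c37*, 42.3% for *Cyp2c54* and 29.2% for *Cyp2c50*. It was lower for *Cyp2c39* (26.9%), *Cyp2c38* (16.6%) and *Cyp2c29* (10.4%), and 0% for *Cyp2c70*. The single values of every member but *Cyp2c70* therefore depend in part on how shared reads were divided by salmon, the program behind the deposited abundances. The first 6 genes named share the most. The values of *Cyp2c70* do not depend on any other *Cyp2c* gene. The annotated body of *Cyp2c29* also overlaps the pseudogene *Cyp2c53-ps* on the same strand, which was listed at no more than 0.243 TPM in any library. A second entry of that name, with no place in the annotation used, was listed at no more than 0.453 TPM.

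Joining every pair in which at least 5% of the stretches of either gene occurred in the other gave 3 groups that held members. *Cyp2c29* fell with *Cyp2c38*, *Cyp2c39* and the pseudogenes *Cyp2c53-ps* and *Cyp2c72-ps*, *Cyp2c37* with *Cyp2c50* and *Cyp2c54*, and *Cyp2c40* with *Cyp2c67*, *Cyp2c68* and *Cyp2c69*. *Cyp2c70* stood alone.

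RefSeq promoter windows on GRCm38.p6, from 250 bases before to 50 bases after the annotated start, were found for 9 of the 10 members, with *Cyp2c54* the one that had no entry. They made up 10 windows, since 1 member has more than 1 start. The letters CAAAGTNCA, a core recognised by HNF4 factors, were searched on both strands and occurred in 6 of the 10 member windows, compared with 1.41% of 32851 windows over all genes. The 6 matches are shown with 10 bases on either side, the match in capitals, because they lie in the members with the highest shares of common sequence as well as in *Cyp2c70*, and because *Hnf4a* itself is described below.
Cyp2c67 (reverse, chr19:39649159-39649167): atcattgagaCAAAGTCCAtttggaagca
Cyp2c68 (reverse, chr19:39741170-39741178): atcattgaaaCAAAGTCCAattggaagag
Cyp2c40 (reverse, chr19:39812851-39812859): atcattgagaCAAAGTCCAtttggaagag
Cyp2c37 (forward, chr19:39992361-39992369): aagaatattcCAAAGTGCAatcaattgat
Cyp2c50 (forward, chr19:40089618-40089626): aagaatgttcCAAAGTGCAatggattgat
Cyp2c70 (reverse, chr19:40187342-40187350): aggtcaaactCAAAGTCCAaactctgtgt

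The coordinates are those of the match alone. The matches of *Cyp2c37*, *Cyp2c50* and *Cyp2c70* began 63, 61 and 64 bases before the annotated start. The sequence around the match was nearly the same in *Cyp2c67*, *Cyp2c68* and *Cyp2c40*, and again in *Cyp2c37* and *Cyp2c50*, so these are not independent matches. The letters TTANGTAA, which the clock output factors of the PAR bZIP family and NFIL3 recognise (the D-box), occurred in 1 member window, that of *Cyp2c38*, compared with 2.32% of all windows.
Cyp2c38 (reverse, chr19:39463152-39463159): agattagaaaTTACCTAAtgggttactc

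The D-box letters lie on the strand opposite to the gene. TTGCNNAA, a core of C/EBP sites, occurred in 3 member windows (*Cyp2c37*, *Cyp2c40* and *Cyp2c67*) compared with 10.8% of all windows. A core of HNF1 sites and the DR4 repeat to which CAR and PXR bind occurred in 0 member windows, compared with 0.399% and 0.125% of all windows. These matches are descriptions of letters in a short window and not binding sites.

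Abundance was measured in TPM, a share of all transcripts in a library that is corrected for transcript length, so that levels can be compared between genes. Between libraries such a share depends also on the other transcripts, so several results are given after upper quartile scaling as well. *Usp21* itself was listed at 4.07 and 6.29 TPM in WT and at 1.64 and 2.93 TPM in KO livers, so both KO libraries lay below both WT libraries, and reads on the exons that remain still count toward this value. The defining genes of hepatocytes were abundant in all 4 libraries, with summed TPM of 10 markers such as *Alb* between 81677 and 102797 in WT and between 73358 and 85254 in KO livers. Of these markers, 2 were higher in KO at an unadjusted p under 0.05, *Hnf4a*, described below, and *Tat*, a tyrosine-degrading enzyme (278 and 458 TPM in WT against 543 and 705 in KO). The number of genes with a TPM above 0 ranged from 12876 to 13620. TPM keeps no record of depth. In the second deposited table, of reads per gene, the counts came to between 102898 and 148164 reads per library, but of 682 genes that reached 100 TPM in each library, 428 had no read there. Of the 10 members, 9 had no read in any library, and *Cyp2c54* had 1 read in each WT library and 0 in each KO library, so that table could not be used to compare the members.

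*Cyp2c29* was the most abundant member in all 4 libraries, followed in most of them by *Cyp2c50*, and together with *Cyp2c70*, *Cyp2c54* and *Cyp2c37* these made up most of the *Cyp2c* transcripts. The 10 members held 0.305% and 0.219% of all TPM in WT and 0.179% and 0.241% in KO livers. Their summed TPM was 3041 and 2182 in the WT libraries and 1788 and 2404 in the KO libraries. The groups overlapped, because KO replicate 3 lay above WT replicate 3. The mean log2 sum was lower in KO by 0.31, a difference that did not exceed the spread between libraries (exact permutation test, two-sided, p = 0.667). It ranged from -0.55 to -0.074 as each library was left out.

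The replicates of one genotype differed widely. WT replicate 2 was above WT replicate 3 for 9 of the 10 members, the exception being *Cyp2c70*, compared with 49.9% of all tested genes. WT replicate 2 held the highest value of all 4 libraries for 8 members, and KO replicate 1 the lowest for 6. The standard errors of the members' log2 fold changes ran from 0.18 to 0.49 with a median of 0.35, compared with a median of 0.26 over all tested genes.

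**Figure D1:**
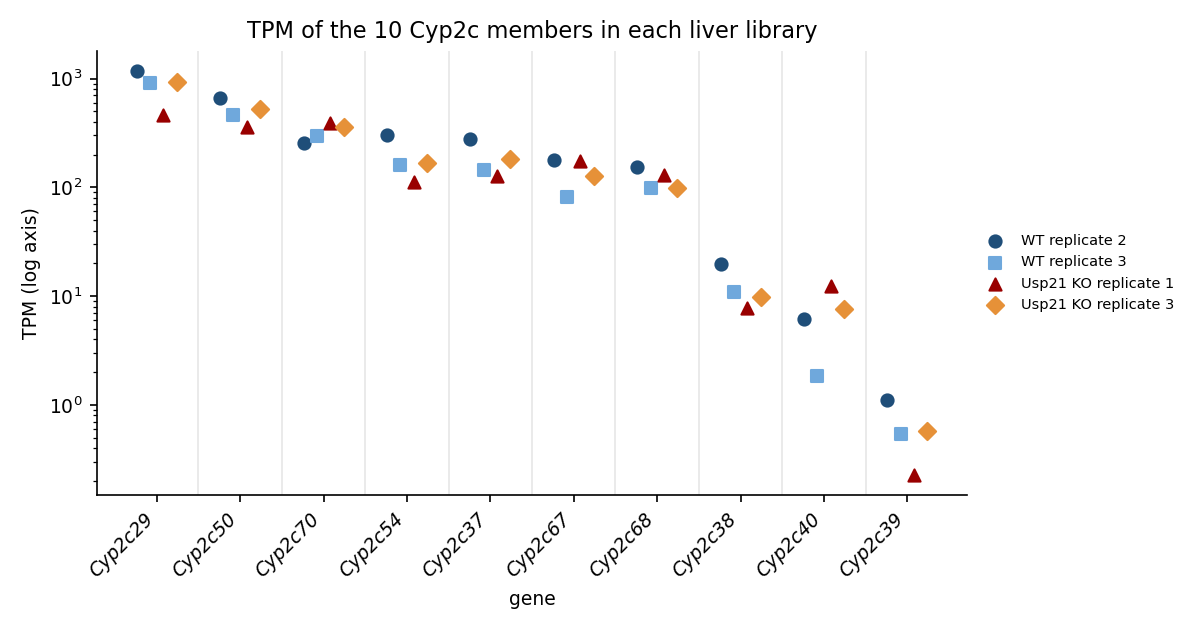
TPM on a log axis of the 10 *Cyp2c* members in each liver library, ordered by mean TPM, with 1 point per mouse. *Cyp2c70* and *Cyp2c40* have both KO points above both WT points, *Cyp2c38* has both KO points below both WT points, and the other 7 overlap.

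Differences between genotypes were tested with limma on log2(TPM + 1) over the 9581 genes whose TPM averaged 1 or more, with Benjamini-Hochberg adjustment. Of the 10 members, 9 passed this filter, and *Cyp2c39* did not. Among the 9, 6 had a negative and 3 a positive log2 fold change (KO minus WT), counts that did not change with upper quartile scaling. None passed an adjusted p of 0.05, the smallest adjusted p being 0.472, compared with 0.0835% of all tested genes that passed. On simulated TPM the same fit recovered 0% of 200 genes given a log2 change of 1, and 80.5% of those given 3. Missing the adjusted threshold therefore cannot tell no change from changes of the size seen in the members. At an unadjusted p under 0.05 there were 2 members, *Cyp2c40* and *Cyp2c70*, both higher in KO, compared with 8.45% of tested genes that were higher at that threshold, and 0 members lower, compared with 2.04% of tested genes. Both KO libraries lay above both WT libraries for 2 members, against a background of 34.4%, and below both for 1 member, *Cyp2c38*, against 10.9%. With upper quartile scaling 2 members lay above, against 24.5% of tested genes, and 3 lay below, against 18.6%, since *Cyp2c29* and *Cyp2c54* joined *Cyp2c38*. The median log2 fold change of the 9 members was -0.35, compared with 0.15 over all tested genes. After upper quartile scaling, which brings the libraries to a common level, these medians were -0.49 and 0.036. Without WT replicate 2 the members' median turned to 0.086.

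**Figure D2:**
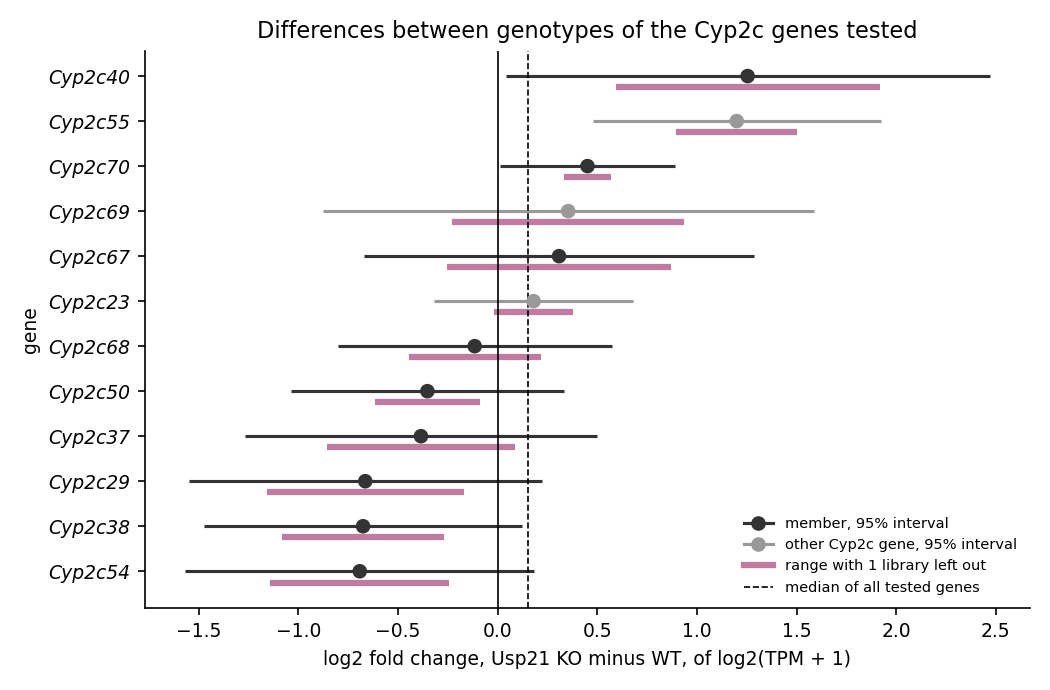
Log2 fold changes (KO minus WT, of log2(TPM + 1)) of the 9 members tested and of 3 other *Cyp2c* genes, with limma's 95% intervals and, below each, the range with 1 library left out. The dashed line is the median of all tested genes (0.15), and among the members the intervals of *Cyp2c40* and *Cyp2c70* alone leave out 0.

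*Cyp2c70*, the enzyme of muricholic acid synthesis, was listed at 254 and 300 TPM in WT and at 394 and 362 TPM in KO livers. Its 2 KO values were both above its 2 WT values, and its spread within each genotype was the smallest of the members in relation to its level (277 ± 32.3 TPM in WT and 378 ± 22.6 TPM in KO, mean ± SD, n = 2 each). The log2 fold change was 0.45 ± 0.18 (SE), with a 95% interval from 0.013 to 0.89 and an adjusted p of 0.472 by limma with Benjamini-Hochberg adjustment. The unadjusted limma p was 0.0455, and with upper quartile scaling, where the log2 fold change was 0.32, it was 0.102. *Cyp2c70* shares no 31-base stretch with any other *Cyp2c* gene, and its direction was kept in every setting in which it was fitted.

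The enzymes that supply or complete the substrates of CYP2C70 were read from a list of 13 bile acid synthesis genes, all of them tested. By log2 fold change 7 were higher and 6 lower in KO, or 4 and 9 with upper quartile scaling, and 0 passed the adjusted threshold. *Cyp7b1*, the oxysterol hydroxylase of the alternative pathway, was listed at 100 and 70.3 TPM in WT and at 149 and 174 TPM in KO livers, both KO values lying above both WT values (log2 fold change 0.94 ± 0.23 SE, limma adjusted p 0.458). *Akr1d1*, the reductase that shapes the steroid ring of bile acids, was listed at 60.7 and 62.1 TPM in WT and at 46.7 and 42.4 TPM in KO livers (-0.46 ± 0.16 SE, limma adjusted p 0.464). They were the only genes of the list with an unadjusted p under 0.05.

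*Cyp2c29*, an arachidonic acid epoxygenase and the most abundant member, was listed at 1177 and 921 TPM in WT and at 466 and 926 TPM in KO livers. KO replicate 1 was the only low library, and KO replicate 3 was level with WT replicate 3, so the groups overlapped. The log2 fold change was -0.66 ± 0.36 (SE), with a 95% interval from -1.55 to 0.22 and a limma adjusted p of 0.522. It was -0.17 without KO replicate 1 and -1.16 without KO replicate 3, so that the size of the difference rested on KO replicate 1. Among all genes, *Cyp2c29* ranked 92nd and 105th by TPM in WT and 221st and 106th in KO livers.

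*Cyp2c38*, which lies next to *Cyp2c29* on the opposite strand, was expressed at a far lower level, with 19.7 and 10.8 TPM in WT, compared with 7.84 and 9.86 TPM in KO livers. It was the only member whose KO values both lay below its WT values, although WT replicate 3 and KO replicate 3 were close. The log2 fold change was -0.68 ± 0.32 (SE), with a 95% interval from -1.47 to 0.12 and a limma adjusted p of 0.498. It was -0.27 without WT replicate 2, the highest library. *Cyp2c39* was the least abundant member, with 1.10 and 0.535 TPM in WT, compared with 0.226 and 0.572 TPM in KO livers, and fitted without the filter its log2 fold change was -0.37 ± 0.25 (SE, limma adjusted p 0.695). The sum of the *Cyp2c29*, *Cyp2c38*, *Cyp2c39*, *Cyp2c53-ps* and *Cyp2c72-ps* values depends on how reads were divided among them only through their different transcript lengths. This sum was 1198 and 933 TPM in WT, compared with 474 and 937 TPM in KO livers. Its log2 fold change was -0.67 ± 0.35 (SE, limma adjusted p 0.521), and it followed *Cyp2c29*, which held nearly all of it.

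*Cyp2c50*, *Cyp2c54* and *Cyp2c37*, close relatives that oxidise arachidonic and linoleic acid, lie side by side and had a like pattern over the libraries. *Cyp2c50* was listed at 667 and 462 TPM in WT and at 362 and 522 TPM in KO livers. *Cyp2c54* was listed at 303 and 162 TPM in WT and at 112 and 167 TPM in KO livers. *Cyp2c37* was listed at 279 and 144 TPM in WT and at 128 and 183 TPM in KO livers. All 3 were highest in WT replicate 2 and lowest in KO replicate 1, and in all 3 KO replicate 3 exceeded WT replicate 3, so the groups overlapped. Their log2 fold changes were -0.35 ± 0.28 for *Cyp2c50*, -0.69 ± 0.35 for *Cyp2c54* and -0.38 ± 0.35 (SE) for *Cyp2c37*, with limma adjusted p of 0.641, 0.516 and 0.692. Without WT replicate 2, that of *Cyp2c37* turned to 0.086. The sum of the 3 was 1249 and 769 TPM in WT, compared with 603 and 872 TPM in KO livers, a log2 fold change of -0.43 ± 0.31 (SE, limma adjusted p 0.614). Leaving out WT replicate 2 brought it to -0.084, and leaving out WT replicate 3 to -0.78.

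*Cyp2c40*, a low member of the most similar group, was listed at 6.12 and 1.84 TPM in WT and at 12.4 and 7.59 TPM in KO livers. Both KO values were above both WT values, and WT replicate 3 was the lowest of the 4 by far. The log2 fold change was 1.25 ± 0.49 (SE), the largest of the 9 members tested, with a 95% interval from 0.041 to 2.47 and a limma adjusted p of 0.472. Leaving out WT replicate 3 lowered it to 0.59, leaving out WT replicate 2 raised it to 1.92, and a pseudocount of 5 gave 0.76. The unadjusted limma p was 0.0449, and 0.057 when genes under the filter were also fitted.

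The relatives of *Cyp2c40* that take up most of the reads of this group showed no such separation. *Cyp2c67* was listed at 178 and 81.1 TPM in WT and at 175 and 127 TPM in KO livers. *Cyp2c68* was listed at 155 and 97.9 TPM in WT and at 131 and 99.1 TPM in KO livers. In both genes the range of the KO values lay inside that of the WT values. The log2 fold changes were 0.31 ± 0.39 for *Cyp2c67* and -0.12 ± 0.28 (SE) for *Cyp2c68*, with limma adjusted p of 0.780 and 0.886, and the first turned to -0.25 without WT replicate 3 while the second turned to 0.22 without WT replicate 2 and to 0.082 without KO replicate 3. The sum with *Cyp2c40* and *Cyp2c69* was 342 and 182 TPM in WT, compared with 322 and 235 TPM in KO livers, a log2 fold change of 0.14 ± 0.34 (SE, limma adjusted p 0.888). The values of *Cyp2c40* were between 1.84 and 12.4 TPM, beside 81.1 to 178 TPM for *Cyp2c67*, with which it shares 55.5% of the stretches of *Cyp2c67*, and the part of read assignment in its difference was not tested.

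**Figure D3:**
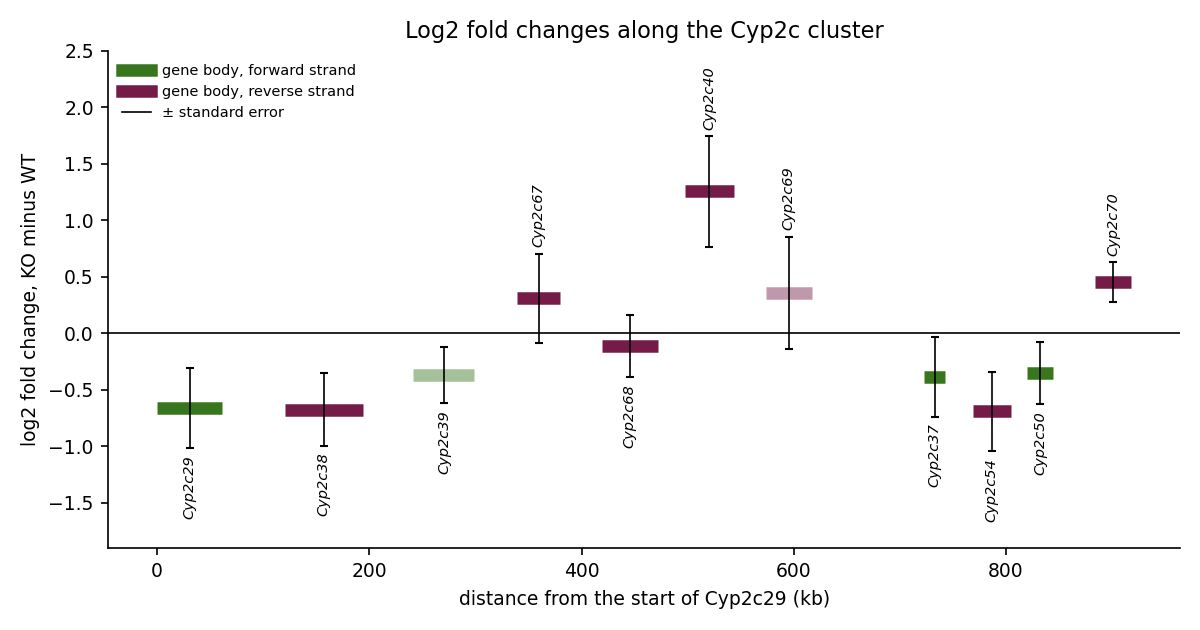
Log2 fold change (KO minus WT, ± SE) of each member drawn at its place in the cluster, as distance in kb from the start of *Cyp2c29*, with bar length the length of the gene body and colour its strand. *Cyp2c39*, fitted without the filter, and *Cyp2c69*, no member, are pale. *Cyp2c29*, *Cyp2c38* and *Cyp2c39* at one end and *Cyp2c37*, *Cyp2c54* and *Cyp2c50* lie below 0, and *Cyp2c70* at the other end lies above 0.

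The share of the *Cyp2c* pool held by a member differed between libraries for some members and hardly for others. *Cyp2c29* held 38.7% and 42.2% of the members' summed TPM in WT and 26.0% and 38.5% in KO livers. *Cyp2c70* held 8.36% and 13.7% in WT and 22.0% and 15.1% in KO livers. *Cyp2c50* held close to the same share in all 4 libraries, 21.9% and 21.2% in WT and 20.2% and 21.7% in KO livers. For *Cyp2c29* and for *Cyp2c70* the KO shares lay on one side of the WT shares, while KO replicate 3 was near the WT libraries in both. The KO shares of *Cyp2c38*, *Cyp2c39* and *Cyp2c54* also lay below the WT shares and those of *Cyp2c40* above, and those of the remaining members overlapped. Shares of a common sum are not independent, since a rise in one lowers the rest. No background over other genes was computed for such shares. With 2 libraries per genotype, even a full separation cannot go below p = 0.333 in an exact permutation test.

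Ratios between members within a library do not depend on the scaling of the library, and the pairs given here were chosen after the values were seen, so they are descriptions. The ratio of *Cyp2c70* to *Cyp2c29* was 0.216 and 0.326 in WT and 0.847 and 0.391 in KO livers. The ratio of *Cyp2c50* to *Cyp2c54* was 2.20 and 2.85 in WT and 3.22 and 3.13 in KO livers, and that of *Cyp2c37* to *Cyp2c54* was 0.919 and 0.891 in WT and 1.14 and 1.10 in KO livers. The ratio of *Cyp2c67* to *Cyp2c40* was 29.1 and 44.1 in WT and 14.1 and 16.7 in KO livers. In each of these pairs the KO ratios lay to one side of the WT ratios, and all but the first pair are of genes that share sequence. Other pairs overlapped between the genotypes: *Cyp2c29* to *Cyp2c50* (1.76 and 1.99 in WT, 1.29 and 1.77 in KO), *Cyp2c50* to *Cyp2c37* and *Cyp2c29* to *Cyp2c38*. The ratios of *Cyp2c67* to *Cyp2c68* and of *Cyp2c70* to *Cyp2c50*, also computed, did not overlap. Ratios of other gene pairs were not computed as a background. An exact permutation test of a single ratio cannot go below p = 0.333 here.

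**Figure D4:**
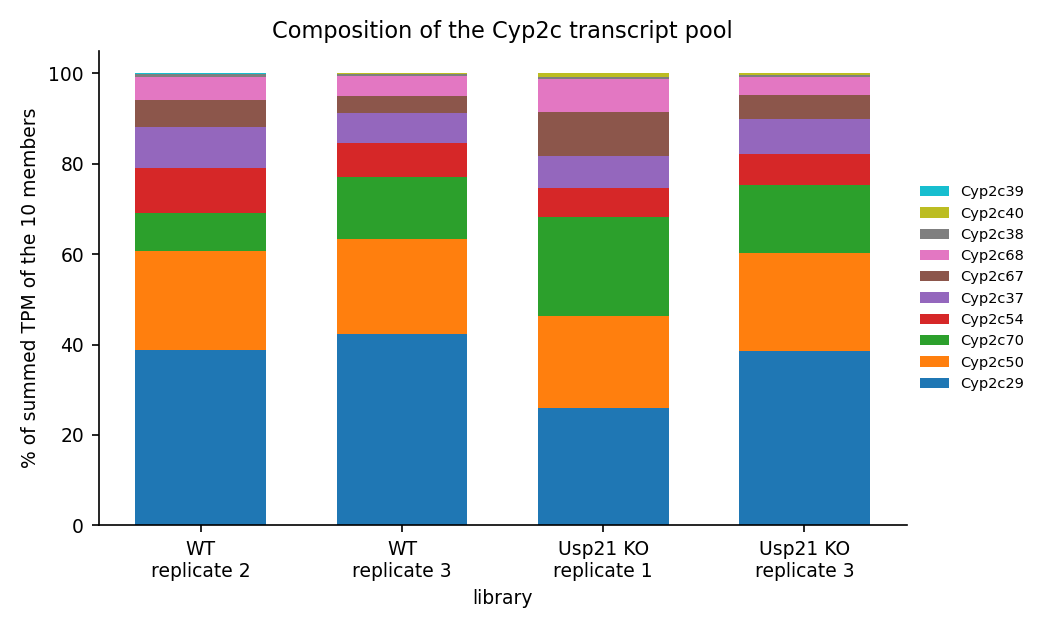
Share (%) of the summed TPM of the 10 members held by each member in each library. The lowest segment, *Cyp2c29*, takes 26.0% in KO replicate 1 and at least 38.5% in the other libraries, and *Cyp2c70* takes 22.0% in KO replicate 1 and 8.36% in WT replicate 2.

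By TPM, a level per transcript length, the ends of the order were the same in each library and its middle was not. *Cyp2c29* was first and *Cyp2c39* last in all 4, and *Cyp2c38* and *Cyp2c40* held the places just above *Cyp2c39*. *Cyp2c70* held place 5 in WT replicate 2, place 3 in WT replicate 3 and in KO replicate 3, and place 2 in KO replicate 1, where it passed *Cyp2c50*. *Cyp2c54* held place 3 in WT replicate 2 and place 7 in KO replicate 1. Among *Cyp2c37*, *Cyp2c54*, *Cyp2c67* and *Cyp2c68*, the ranges over the 2 libraries of a genotype overlapped from each gene to the next. Such ranges ignore that the genes were measured in the same libraries. Within libraries, *Cyp2c54* lay above *Cyp2c37* in both WT libraries and below it in both KO libraries. *Cyp2c67* lay above *Cyp2c68* in both KO libraries, while their order differed between the WT libraries.

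Of the other *Cyp2c* genes in the files, only *Cyp2c23*, *Cyp2c55* and *Cyp2c69* passed the filter. *Cyp2c55*, which is best known from the gut and lies outside the members' span on the same chromosome, was listed at 2.68 and 3.25 TPM in WT and at 10.2 and 6.36 TPM in KO livers. Both KO values were above both WT values (log2 fold change 1.20 ± 0.29 SE, limma adjusted p 0.458), and the difference was between 0.90 and 1.5 as each library was left out. *Cyp2c23*, an arachidonic acid epoxygenase that lies apart from the cluster on chromosome 19, was listed at 218 and 165 TPM in WT and at 228 and 204 TPM in KO livers (0.18 ± 0.20 SE, limma adjusted p 0.744). *Cyp2c69* was listed at 3.07 and 0.818 TPM in WT and at 3.68 and 1.58 TPM in KO livers (0.35 ± 0.50 SE, limma adjusted p 0.798). A further 6 entries, *Cyp2c65*, *Cyp2c66* and 4 pseudogenes, were listed at 0 in all 4 libraries.

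The electron donors of the P450 enzymes were a list of 4 genes, all tested and all with a negative log2 fold change, also with upper quartile scaling. *Por*, the reductase that feeds every microsomal P450, was listed at 175 and 168 TPM in WT and at 81.8 and 81.4 TPM in KO livers. The replicates of each genotype were close, and both KO values lay far below both WT values. The log2 fold change was -1.06 ± 0.15 (SE), with an unadjusted limma p of 0.000631 and an adjusted p of 0.203, so that it was lower at the unadjusted threshold and did not pass the adjusted one. *Cyb5a*, which encodes cytochrome b5, was listed at 1447 and 1673 TPM in WT and at 1351 and 1300 TPM in KO livers (-0.23 ± 0.19 SE, limma adjusted p 0.658). *Cyb5r3*, the reductase of cytochrome b5, was listed at 155 and 190.4 TPM in WT and at 184 and 151 TPM in KO livers, and its groups overlapped.

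The hydrolases that act on the epoxides showed no such difference. *Ephx2*, the soluble epoxide hydrolase, was listed at 322 and 266 TPM in WT and at 324 and 328 TPM in KO livers (log2 fold change 0.15 ± 0.18 SE, limma adjusted p 0.75). *Ephx1*, the microsomal hydrolase, was listed at 314 and 214 TPM in WT and at 175 and 298 TPM in KO livers, with KO replicate 1 the lowest library as for *Cyp2c29* (-0.18 ± 0.32 SE, limma adjusted p 0.843). Among 7 *Cyp2j* genes, the other epoxygenase subfamily of the liver, 3 were tested and had a positive log2 fold change under either scaling, and 0 had an unadjusted p under 0.05. The highest, *Cyp2j5*, was listed at 226 and 218 TPM in WT and at 272 and 237 TPM in KO livers. *Cyp2j6* was listed at 24.2 and 24.1 TPM in WT and at 32.9 and 23.1 TPM in KO livers.

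Of 22 genes listed as regulators of hepatic *Cyp2c* genes, 21 were tested. Their median log2 fold change was 0.048, or -0.056 with upper quartile scaling. The list was chosen with earlier results of these data known, so its counts are descriptions. At an unadjusted p under 0.05, 3 were higher and 3 lower in KO, compared with 8.45% and 2.04% of all tested genes, and 1 of them, *Dbp*, passed the adjusted threshold, which 0.0835% of all tested genes passed. *Dbp*, a PAR bZIP activator whose RNA cycles with the time of day, was listed at 56.8 and 41.3 TPM in WT and at 4.73 and 4.97 TPM in KO livers (log2 fold change -3.08 ± 0.23 SE, limma adjusted p 0.0193). Its relatives *Tef* (17.0 and 21.3 TPM in WT against 8.23 and 9.0 in KO) and *Hlf* (7.43 and 7.02 TPM in WT against 4.32 and 4.37 in KO) were lower at the unadjusted threshold, with limma adjusted p of 0.402 and 0.464. *Nfil3*, the repressor that binds the same D-box, was listed at 3.86 and 8.13 TPM in WT and at 17.0 and 24.5 TPM in KO livers (1.69 ± 0.36 SE, limma adjusted p 0.436). The hour at which the livers were collected was not given, and its part in these values was not tested.

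*Hnf4a*, which encodes the liver nuclear receptor whose core letters occurred in 6 member windows, was listed at 112 and 105 TPM in WT and at 171 and 155 TPM in KO livers. Both KO values lay above both WT values (log2 fold change 0.59 ± 0.16 SE, limma adjusted p 0.464). Among the 6 members with those letters, all tested, *Cyp2c70*, *Cyp2c40* and *Cyp2c67* had a positive and *Cyp2c37*, *Cyp2c50* and *Cyp2c68* a negative log2 fold change. *Onecut1*, a liver homeodomain factor, was listed at 2.41 and 1.45 TPM in WT and at 10.5 and 3.73 TPM in KO livers (1.35 ± 0.47 SE, limma adjusted p 0.464). The xenobiotic receptors are given for their role and were picked outside the rule for naming genes. *Nr1i3*, which encodes CAR, was listed at 38.9 and 42.1 TPM in WT and at 34.9 and 26.5 TPM in KO livers (-0.40 ± 0.20 SE, limma adjusted p 0.516). *Nr1i2*, which encodes PXR, was listed at 19.3 and 16.4 TPM in WT and at 18.8 and 16.3 TPM in KO livers (-0.022 ± 0.20 SE, limma adjusted p 0.972).

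**Figure D5:**
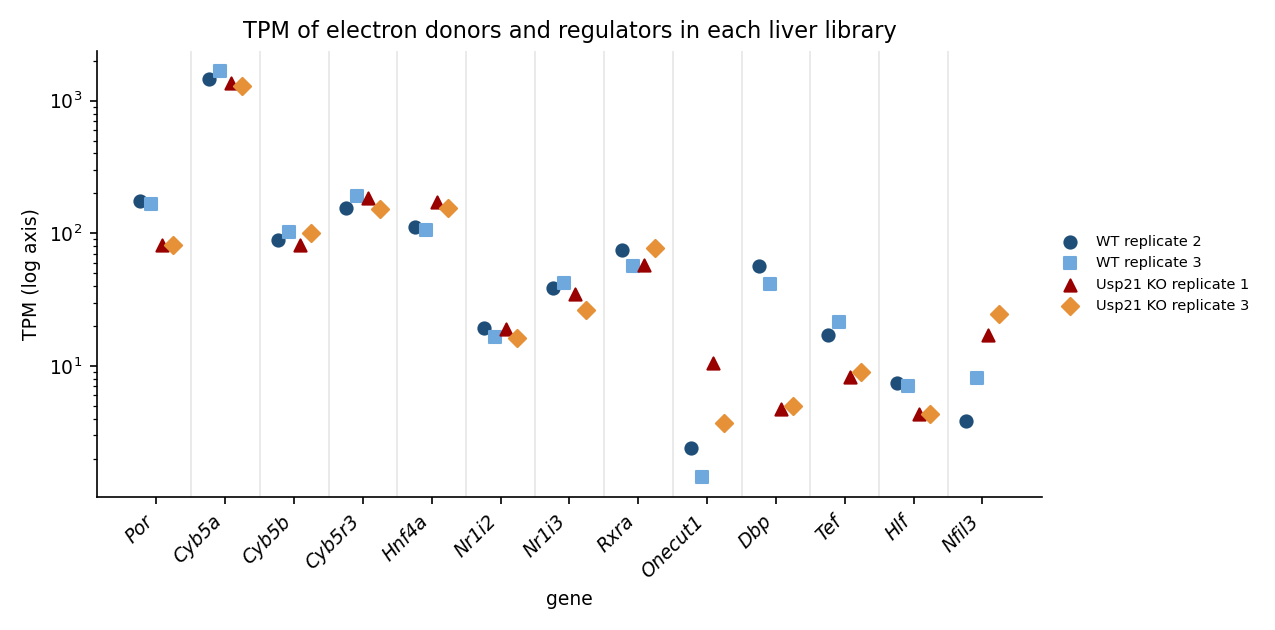
TPM on a log axis, 1 point per mouse, of the 4 electron donors, the 6 regulators with an unadjusted p under 0.05 and the receptors *Nr1i2*, *Nr1i3* and *Rxra*. The KO points of *Por*, *Cyb5a*, *Dbp*, *Tef*, *Hlf* and *Nr1i3* lie below both WT points, and those of *Hnf4a*, *Onecut1* and *Nfil3* lie above. Those of *Cyb5b*, *Cyb5r3*, *Nr1i2* and *Rxra* overlap with WT.

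Other genes that CAR and PXR are known to induce were a list of 19, of which 16 were tested. By log2 fold change 8 were higher and 8 lower, with a median of 0.0035, or 7 and 9 with upper quartile scaling, and 0 passed the adjusted threshold. *Cyp2a5* was listed at 495 and 616 TPM in WT and at 222 and 177 TPM in KO livers (-1.47 ± 0.21 SE, limma adjusted p 0.188). *Aldh1a1*, a retinal dehydrogenase, was listed at 692 and 614 TPM in WT and at 318 and 521 TPM in KO livers, with KO replicate 1 the lowest library (-0.68 ± 0.27 SE, limma adjusted p 0.473). The bile acid and conjugate exporter *Abcc2* (0.53 ± 0.18 SE, limma adjusted p 0.464) and the carboxylesterase *Ces2a* (0.49 ± 0.17 SE, limma adjusted p 0.464) were higher at the unadjusted threshold.

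Several *Cyp2c* genes are known to be more active around the central vein or in mice of one sex, so genes of those kinds were read in the same libraries. Of 16 pericentral hepatocyte genes 14 were tested, and 12 had a negative log2 fold change, or 13 with upper quartile scaling, with a median of -0.34, close to that of the *Cyp2c* members. Both KO libraries lay below both WT libraries for 9 of the 14, against the background of 10.9%. With upper quartile scaling that background was 18.6%, and the list was not counted there. An unadjusted limma p under 0.05 was reached by 1 gene, *Gulo* (137 and 119 TPM in WT against 99.96 and 73.5 in KO). The lists were chosen with earlier results of these data known, so their counts beside a background are descriptions. *Cyp2e1* was listed at 4802 and 3150 TPM in WT and at 3106 and 3041 TPM in KO livers, and *Rgn* at 438 and 655 TPM in WT and at 595 and 533 TPM in KO livers. Of the 15 periportal genes tested, 12 had a positive log2 fold change, or 9 with upper quartile scaling, and 0 had an unadjusted p under 0.05. Its most abundant genes were *Alb* (43181 and 32024 TPM in WT against 31006 and 27475 in KO) and *Ass1* (2137 and 1960 TPM in WT against 3138 and 1551 in KO).

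Of the 14 genes known to be higher in male liver, all tested, 13 had a positive log2 fold change in KO, or 12 with upper quartile scaling. Both KO libraries lay above both WT libraries for 7 of them, against 34.4% of tested genes, and 5 were higher at an unadjusted p under 0.05, against 8.45% (*Ugt2b38*, *Cyp4a12a*, *Cyp4a12b*, *C6* and *Elovl3*). With upper quartile scaling the first background was 24.5%, and the list was not counted there. Since this list was also chosen with earlier results known, these counts are descriptions. *Elovl3*, for example, was listed at 87.5 and 10.8 TPM in WT and at 253 and 208 TPM in KO livers. Of 16 genes known to be higher in female liver only 3 were tested, and the summed TPM of all 16 was no more than 10.7 in any library. The 1 with an unadjusted p under 0.05, *Acot3*, was listed at 3.06 and 4.77 TPM in WT and at 0.107 and 1.56 TPM in KO livers. The others tested were *Cyp17a1* (1.89 and 1.24 TPM in WT against 2.85 and 1.18 in KO) and *Fmo2* (1.53 and 2.57 TPM in WT against 2.09 and 1.04 in KO). The Y-linked genes *Ddx3y* and *Eif2s3y* were above 0 in all 4 libraries, at 7.14 to 20.5 and 11.9 to 24.4 TPM. The part of zonation and of sex-biased expression in the *Cyp2c* values was not tested.

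Markers of the other cells of the liver were low beside those of hepatocytes in every library, although 0 of them were at 0 in all 4. The summed TPM of 11 Kupffer cell markers was 226 and 262 in WT and 120 and 307 in KO livers, so that KO replicate 1, which had the lowest *Cyp2c29*, also had the lowest sum. Their most abundant genes were *C1qa* (47.8 and 56.4 TPM in WT against 23.4 and 59.3 in KO) and *Clec4f* (32.1 and 39.2 TPM in WT against 30.05 and 58.0 in KO), and 0 of the 11 had an unadjusted p under 0.05.

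The sum of 9 sinusoidal endothelial markers was 71.8 and 56.6 TPM in WT, compared with 64.3 and 84.0 TPM in KO livers, and *Lyve1* (0.651 and 0.298 TPM in WT against 2.91 and 1.14 in KO) was the 1 gene of the list with an unadjusted p under 0.05. Its most abundant genes were *Clec4g* (29.7 and 23.8 TPM in WT against 21.3 and 36.8 in KO) and *Fcgr2b* (17.6 and 11.7 TPM in WT against 14.6 and 17.4 in KO). Those of 8 stellate cell markers (56.0 and 47 TPM in WT against 87.1 and 65.1 in KO) and of 6 cholangiocyte markers (14.6 and 15.9 TPM in WT against 38.0 and 24.5 in KO) were higher in both KO libraries. The leading genes there were *Dcn* (42.6 and 34.1 TPM in WT against 62.8 and 48.4 in KO) and, with an unadjusted p under 0.05, *Spp1* (13.2 and 12.7 TPM in WT against 33.4 and 20.7 in KO). Next in those lists were *Reln* (7.02 and 4.52 TPM in WT against 10.3 and 7.74 in KO), *Sox9* (0.641 and 1.88 TPM in WT against 2.41 and 1.83 in KO) and *Krt19* (0.196 and 0.263 TPM in WT against 0.998 and 1.28 in KO, under the filter).

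The sum of 9 blood cell markers was 558 and 550 TPM in WT, compared with 495 and 391 TPM in KO livers, most of it haemoglobin. *Hba-a1* (133 and 139 TPM in WT against 107 and 90.7 in KO) was lower at an unadjusted p under 0.05, and the other genes named from this list by their level were *Hbb-bs* (418 and 365 TPM in WT against 380.2 and 296 in KO) and *S100a8* (2.26 and 29.1 TPM in WT against 1.12 and 0.738 in KO). The part of these cells in the *Cyp2c* values was not tested.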

How the data were processed

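Illumina RNA-seq of liver from WT (replicates 2 and 3) and *Usp21* KO (replicates 1 and 3) mice was analysed, each library assigned by its label, with 0 columns left unused. The authors estimated abundance with salmon against an mm10 transcriptome and deposited TPM per gene, together with the same values as log2(TPM + 1), which were read only for a check. They also deposited HTSeq counts divided by TMM library sizes (edgeR) as a CPM signal, whose steps gave whole reads for 100% of values within 0.02 reads. Versions, annotation release and strand setting are not given in the sources used here.

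The members and lists were chosen with earlier results of these data known. A set of 18 gene lists was used besides the members. Named are all members, the other *Cyp2c* genes, *Usp21* and, from each list, genes with an unadjusted p under 0.05 or, where fewer than 2, those with the highest mean TPM. Genes averaging 1 TPM or more were tested with limma 3.58.1 (lmFit, eBayes with trend, pseudocount 1, prior degrees of freedom 3.62) in R 4.3.3, two-sided, with Benjamini-Hochberg adjustment over 9581 genes. *Cyp2c39* was fitted without the filter. Paralogs were joined by shared 31-mers of GENCODE M21 transcripts. Promoters came from RefSeq. Alternatives were pseudocounts of 0.1 and 5, other filters, upper quartile scaling, no moderation, the CPM table, edgeR 4.0.16 and DESeq2 1.42.0 on recovered reads, and each library left out. Scripts were tested on simulated data. The labels number the mice within each genotype. The limma p-values combine a gene's spread between these 4 libraries with the variances of the other tested genes. Without this moderation the unadjusted limma p was 0.230 for *Cyp2c40* and 0.0774 for *Cyp2c70*.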

Additional observations from a re-analysis of the deposited data

How the results depend on the processing

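TPM keeps no depth, so counting error cannot be given for the members. The number of members past an adjusted p of 0.05 was 0 under every alternative (limma, edgeR and DESeq2), beside 2 at an unadjusted p under 0.05. The latter count was 1 with no filter and with a mean of at least 5 TPM, 0 with upper quartile scaling, without moderation of variances, with the TMM-normalized CPM and with edgeR and DESeq2 on recovered reads, and from 0 to 3 as each library was left out. The count of members with non-overlapping groups, 3, was 5 with upper quartile scaling, 1 in the CPM table, and from 3 to 9 as each library was left out, where a single library stands for its group. The members' median log2 fold change, -0.35, ranged from -0.62 to 0.086 as each library was left out, turning positive without WT replicate 2. In the CPM table and with edgeR and DESeq2 it was -3.23, -3.22 and -2.57, values of *Cyp2c54* alone, the only member with a read there, and these rest on 1 read in each WT library. The sum of *Cyp2c40*, *Cyp2c67*, *Cyp2c68* and *Cyp2c69* (0.14) turned to -0.32 without WT replicate 3 and to -0.085 without KO replicate 1 and reached 0.60 without WT replicate 2. As each library was left out, *Cyp2c37* ranged from -0.86 to 0.086, *Cyp2c67* from -0.25 to 0.87 and *Cyp2c68* from -0.45 to 0.22. Every reversal of a single member came from leaving out a library, and the other 89 of 93 refits of single members kept their direction. Many of these could not change it, since another filter or no moderation leaves the log2 fold change as it was. The cause of the shifts between settings was not tested. No paired analysis was possible because the groups share only replicate number 3.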
